A study of Mus musculus with 10 samples.

Results

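The comparison described here is that of day 13 embryoid bodies (EBs) in which a Pdx1 and Ngn3 cassette was switched on with doxycycline (Dox) against EBs of the same cells without Dox. It was chosen by sample group and covers 4 of the 10 arrays of the series, namely 2 Dox(+) and 2 Dox(-) arrays. On the side of the probes, members are the discovery probes above background on both arrays of either group, which are 25646 of 34967. Of them, 25569 had a value in each of the 5 groups of arrays in the series and were tested. The probes with 1 gene symbol named 14752 genes, each read by its brightest member probe except in the ranking of single genes. EBs are floating aggregates of embryonic stem (ES) cells that differentiate into mixtures of cell types. The cells, tet-pdx1/ngn3, derive from the Ainv18 mouse ES cell line, in which a transgene at the Hprt locus is transcribed when Dox is added, and a single bicistronic message carries Pdx1, an internal ribosome entry site and Ngn3. Both groups were grown without feeders in serum-free medium with N2 and B27 (with vitamin A and retinoic acid), received activin A from day 2, were reaggregated on day 4 with BMP4, bFGF and activin A, and floated from day 6 to day 13. The Dox(+) group had 1 µg/ml Dox from day 4 and the Dox(-) group had none, so that the controls carry the cassette and saw the same factors but never Dox itself. An effect of Dox and an effect of the transgenes cannot be told apart in this design, and every result rests on 1 engineered line. In the labels the source of each EB array names Pdx1-IRES-Ngn3, whereas another entry says that the cells overexpress activated Notch4. The labels number the arrays as biological replicates without saying that they came from separate cultures. The p-values therefore measure only the spread between arrays of a group, which may be technical. This spread was estimated over all 10 arrays of the series, not over the 4 EB arrays alone.

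Pdx1 is a homeodomain factor that marks the pancreatic and duodenal part of the gut tube, and Ngn3 (Neurog3) is a basic helix-loop-helix factor that commits progenitors to the endocrine fate and then falls silent. In the embryo, cells that pass through Ngn3 leave the cell cycle and detach from the epithelium, and they take up a secretory programme that shares much with that of neurons. Forced expression of such factors in a mixed EB culture can change the cells that carry them and can also change how many cells of other lineages are present. In bulk RNA, fewer cells of a type and less RNA per cell cannot be told apart, which holds for each result that follows. The hormones, granule proteins, neuronal genes and liver and intestine genes are left aside, and the signalling pathways, immune genes, matrix, cytoskeleton, transcription factor families, metabolism and housekeeping machinery are described.

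Levels are background-subtracted spot intensities divided by the median of their array, so a level of 1 is the median probe. They were floored at 0.27, near the lowest signal called above background, and a difference is the Dox(+) minus Dox(-) mean on the log2 scale from limma, given as the value ± its standard error over 2 arrays a group. A fold is written as "at least" where neither array of the lower group was above background or the higher group was saturated, and levels of different genes are not compared because they come from different probes. Genes said to rise or fall passed an adjusted p of 0.05. The probe named for Pdx1 did not rise above background on any EB array, at 0.27 and 0.333 without Dox and 0.27 on both arrays with Dox, and is not a member. The Neurog3 probe read 0.458 and 0.520 without Dox and 0.447 and 0.557 with Dox, so that the groups overlapped. The Notch4 probe read 0.637 and 0.799 in Dox(-) EBs and 0.877 on the only Dox(+) array with a value. Of these 3 probes none passed the limma test (adjusted p = 0.553 for Pdx1, 0.962 for Neurog3 and 0.398 for Notch4), and whether they can read the transcript of the cassette is not given in the sources used here. Hprt, the purine salvage gene at the locus that carries the cassette, read 1.11 and 1.23 without Dox and 2.46 and 2.48 with Dox and rose 2.11-fold (1.08 ± 0.12 on the log2 scale, limma adjusted p = 4.16e-05). Both Dox(+) arrays lay above both Dox(-) arrays for Hprt.

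Between 67.2% and 74.3% of discovery probes were above background on the EB arrays, with 67.2% and 68.1% for the Dox(-) arrays against 73.7% and 74.3% for the Dox(+) arrays. Replicate arrays differed by a median of 0.13 and 0.14 on the log2 scale, against 0.37 between the groups. Of the markers of gut endoderm and epithelium, 12 were measured. Foxa2 and Sox17 rose, 3.40-fold and 2.13-fold, and 8 fell, among them the tight junction genes Cldn4 (4.38-fold) and Cldn6 (3.85-fold) and the pioneer factor Foxa1 (2.56-fold). These 5 markers were above background on all 4 arrays.

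In the limma fit 5794 member probes were higher in Dox(+) EBs, which is 22.7% of those tested, and 6295 were lower, which is 24.6%. At 1 probe a gene, 3908 genes (26.5%) rose and 3704 (25.1%) fell, with a median difference of -0.02. These shares are the background against which each list is to be read, since about 1 gene in 4 was called in each direction. On the floored scale, changes of at least 10-fold were more frequent upwards, at 226 genes, than downwards, at 68 genes. Probes at background on both Dox(-) arrays and above it on both Dox(+) arrays numbered 1675, against 258 the other way. The part of such probes in the excess of large rises was not tested. The lowest level called above background was 0.278 and 0.251 on the Dox(-) arrays but 0.212 and 0.205 on the Dox(+) arrays. Dim probes were thus called above background at lower levels with Dox, and the part of this in the 1675 and the 258 was not tested. Single genes were ranked without a list of 241 entries for the classes left aside, which holds Pax6, Rab3c and Dclk1, given further below. For this ranking each gene was taken at its member probe with the largest change, which need not be its brightest. In this ranking the largest rises were those of Lhfpl4, a GABA receptor-associated tetraspan protein (at least 108-fold), the actin-binding Tagln3 (at least 96.0-fold) and the ion channel factor Fam155a (81.0-fold, 1 Dox(-) array at background). Next came 1700086L19Rik (80.3-fold, 1 Dox(-) array at background), Igsf21 (at least 73.5-fold), Klhl32 (at least 70.0-fold) and the homeobox gene Barhl1 (at least 65.5-fold). Several of these are known from the nervous system although the list of neuronal genes left aside does not hold them. Lhfpl4 read 0.27 on both arrays without Dox and 30.6 and 28.7 with Dox, and Barhl1 read 0.27 on both arrays without Dox and 19.1 and 16.9 with Dox. The Dox(-) arrays of both genes lay at the floor. Try5, a trypsin gene, was also among the 12 largest rises, from 0.27 on both arrays to 15.0 and 13.96 (at least 52.8-fold). Trypsins share much of their sequence, so that the member of the family behind this signal is uncertain. The largest falls were held by genes of blood cells, with Ppbp (at least 224-fold) and Pf4 (129-fold) of platelets first, and by the iodide carrier Slc5a5 (from 22.2 and 23.2 to 0.810 and 0.587, 32.9-fold), the muscle phosphoglycerate mutase Pgam2 (32.3-fold) and Nrgn, a calmodulin-binding protein (26.5-fold).

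**Figure D1:**
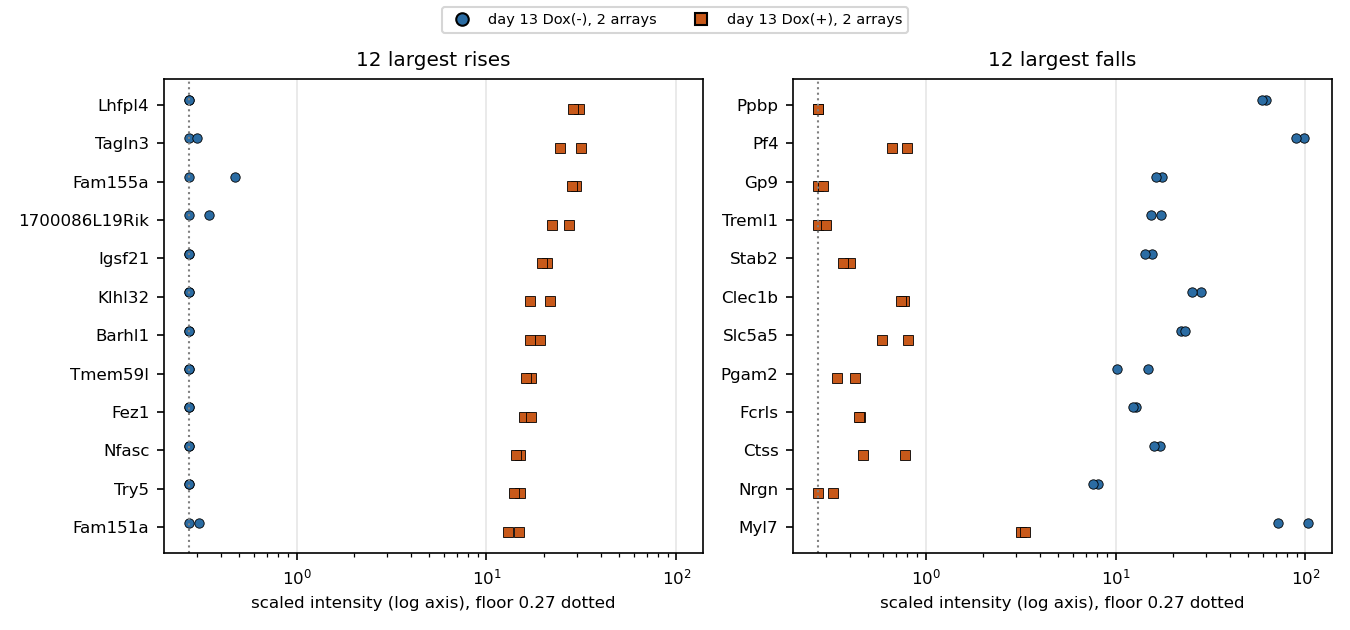
Level on each of the 4 EB arrays (log axis, array median = 1) for the 12 largest rises and the 12 largest falls, each gene at its member probe with the largest change. For Fez1 this is the dimmer probe, and its brighter probe rose 4.60-fold, from 3.82 and 3.96 to 17.8 and 18.0. Genes listed for the classes left aside were left out of this ranking, and each array is 1 point coloured by group. The 2 arrays of a group lie close together and the groups do not overlap in any of the 24 genes, which the rule that chose them required.

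**Figure D2:**
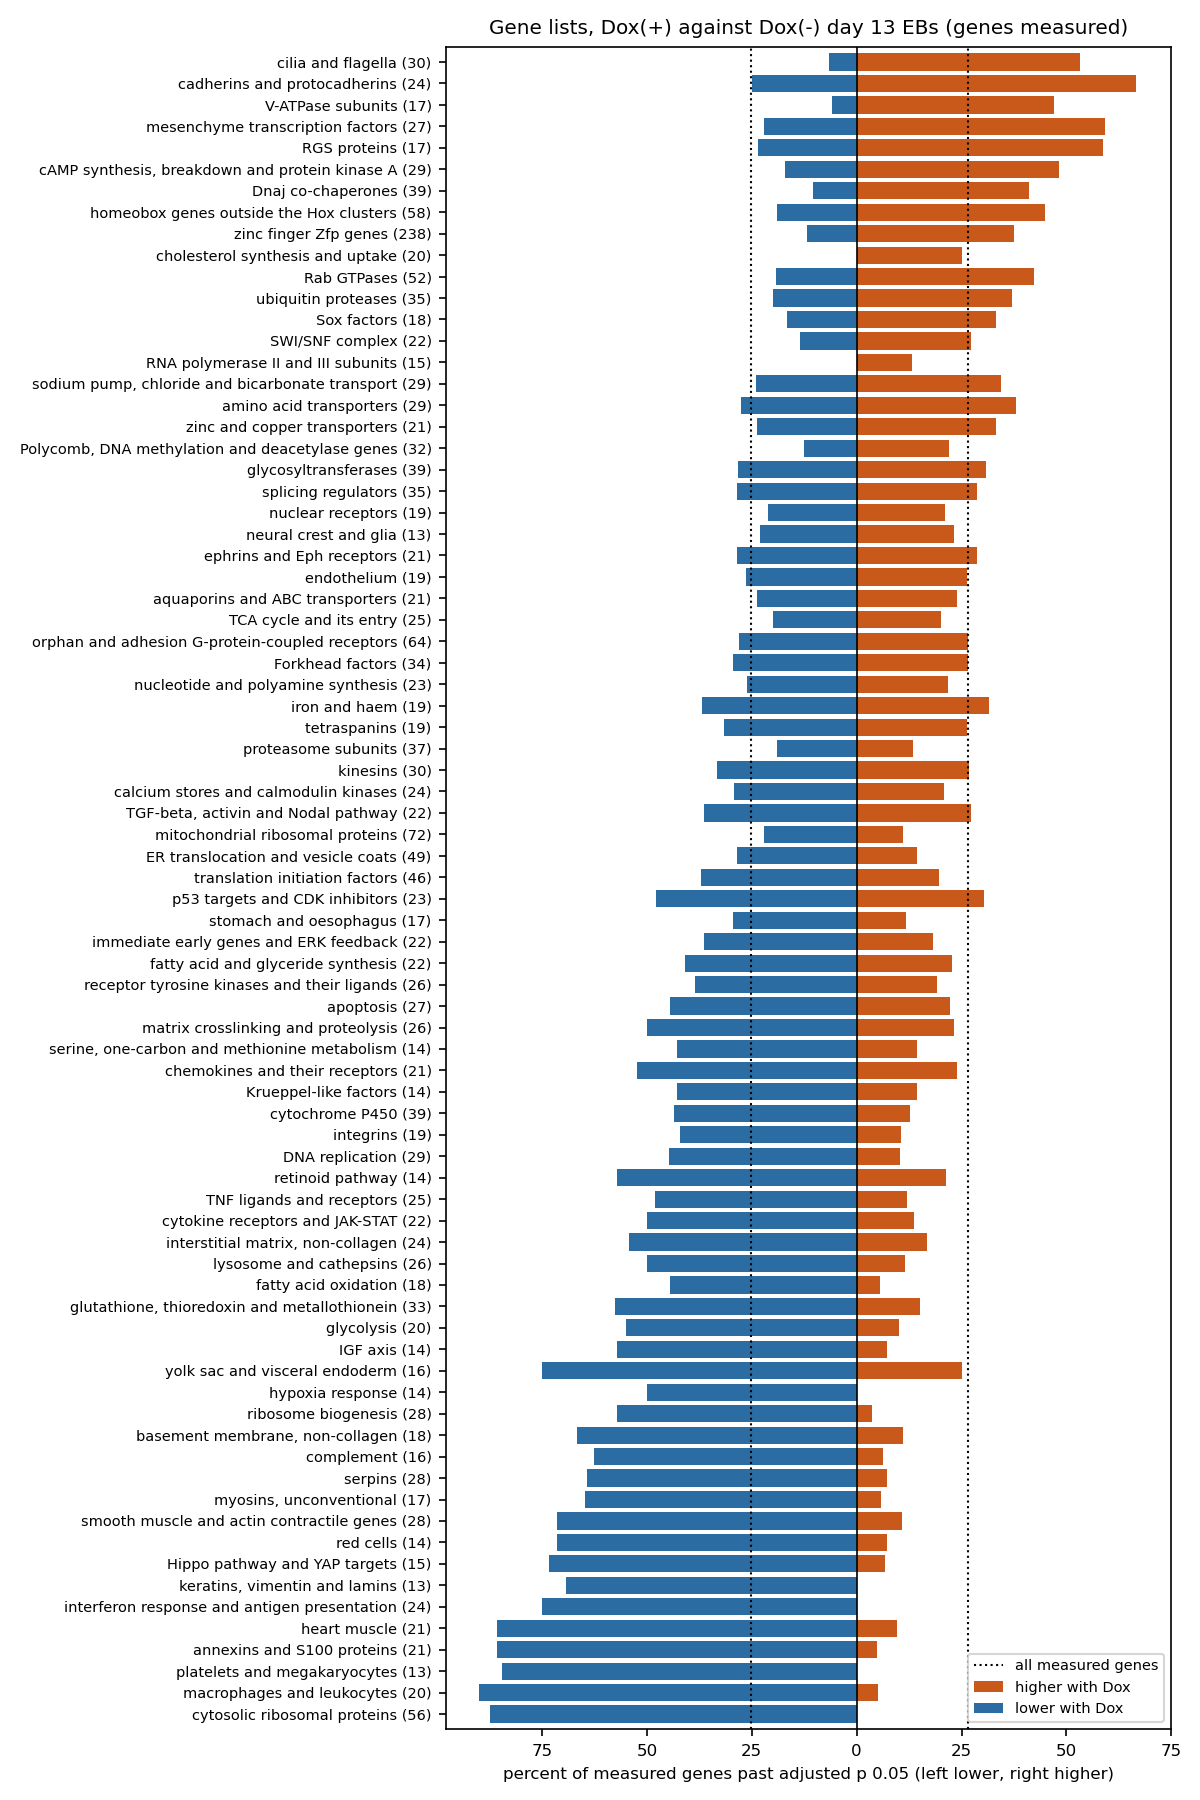
Percent of the measured genes of each list that rose (right) or fell (left) in Dox(+) EBs at an adjusted p of 0.05 from limma, for lists with at least 13 measured genes other than the olfactory receptors and the solute carriers as a whole, with dotted lines at the shares over all 14752 genes (26.5% and 25.1%). Macrophage, ribosomal protein, annexin, heart and platelet genes reach furthest to the left, and RGS and cadherin genes are among those furthest to the right.

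Retinoic acid patterns the foregut and is made from vitamin A, which the medium supplied to both groups. Of 14 measured genes of the retinoid pathway, 8 fell (57.1%) and 3 rose, with a median of -0.54. Dhrs3, an enzyme that returns retinaldehyde to retinol and is itself induced by retinoic acid, read 11 and 10.4 without Dox and 1.07 and 0.890 with Dox and fell 11.01-fold (-3.46 ± 0.15 on the log2 scale, limma adjusted p = 2.48e-08). The 2 cellular binding proteins of retinoic acid moved in opposite directions. Crabp1 read 2.58 and 2.50 without Dox and 34.8 and 42.9 with Dox, a rise of 15.2-fold (3.93 ± 0.13 on the log2 scale, limma adjusted p = 5.38e-09), and Crabp2 read 11.8 and 12.9 without Dox and 2.91 and 3.46 with Dox, a fall of 3.89-fold (-1.96 ± 0.16 on the log2 scale, limma adjusted p = 3.15e-06). No array of one group reached the levels of the other for Dhrs3, Crabp1 or Crabp2. Among the receptors, Rxra fell 2.96-fold. The small rises of Rxrg (1.23-fold) and of the retinol-binding protein receptor Stra6 (at least 1.82-fold) lost the threshold when any of several arrays was left out, Rxrg without each of the 4 EB arrays, and also after quantile normalization, and Stra6 without Dox(-) array 1 or either Dox(+) array.

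The Hippo pathway is a kinase cascade that keeps the coactivators YAP and TAZ out of the nucleus, where they act through TEAD factors on genes of growth and of the cell surface. Of 15 measured members and targets 11 fell (73.3%) and 1 rose, with a median of -0.72. The secreted matricellular targets Ccn2 and Ccn1 fell furthest. Ccn2 read 20.3 and 20.0 without Dox and 2.73 and 2.19 with Dox (8.24-fold lower, -3.04 ± 0.13 on the log2 scale, limma adjusted p = 2.96e-08), and Ccn1 read 18.9 and 21.4 without Dox and 3.71 and 3.42 with Dox (5.65-fold lower, -2.50 ± 0.11 on the log2 scale, limma adjusted p = 2.83e-08). Ajuba, a LIM protein that restrains the kinases Lats1 and Lats2, fell 2.85-fold, from 20.1 and 19.8 to 6.75 and 7.28, and the receptor kinase Axl fell 2.13-fold. In each of these 4 genes both Dox(+) arrays lay below both Dox(-) arrays. The single rise was that of Lats1 (0.885 and 1.05 to 1.57 and 1.29, 1.48-fold), and it did not pass without Dox(-) array 1 or Dox(+) array 1. Without Dox(+) array 2, 7 of the members fell in place of 11.

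The 300 bases around the start of each gene (250 before and 50 after) were read from RefSeq on GRCm38.p6 for 27025 genes, and 10 short motifs were counted on both strands over all lists. Those shown were chosen with these counts in view. GGAATG, the core bound by TEAD factors, stood in 8 of the 12 Hippo genes with a promoter in the table (66.7%), against 16.6% of all genes. Of the 8, 6 fell and 2 did not pass the test. The promoters of the 2 of these that fell with the smallest adjusted p are printed to show where the letters lie, 5′ to 3′ on the strand of the gene, with the motif or its reverse complement in capitals. Ccn1 is at chr3:145649936-145650235 and Ajuba at chr14:54577612-54577911, both on the minus strand.
Ccn1: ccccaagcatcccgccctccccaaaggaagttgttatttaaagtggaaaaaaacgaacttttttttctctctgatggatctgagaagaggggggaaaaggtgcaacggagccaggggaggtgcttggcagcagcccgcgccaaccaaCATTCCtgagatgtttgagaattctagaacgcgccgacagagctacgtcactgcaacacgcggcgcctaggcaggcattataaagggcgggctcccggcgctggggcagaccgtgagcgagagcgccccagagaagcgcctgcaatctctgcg
Ajuba: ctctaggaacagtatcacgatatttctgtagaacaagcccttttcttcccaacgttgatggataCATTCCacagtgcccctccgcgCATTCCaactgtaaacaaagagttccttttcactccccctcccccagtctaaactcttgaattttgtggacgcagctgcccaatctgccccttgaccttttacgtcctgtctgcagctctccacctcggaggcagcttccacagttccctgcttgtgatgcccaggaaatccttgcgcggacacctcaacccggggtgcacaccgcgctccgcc
A match is a description of the letters and not of a bound site. The 12 largest rises, none of them Hippo genes, held GGAATG in 5 of 10 promoters and the 12 largest falls in 5 of 12.

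The insulin-like growth factor axis controls growth through secreted ligands and a family of binding proteins. Of 14 measured genes 8 fell and 1 rose (median -0.54), and 1 of the 8 was saturated on all 4 arrays. Igf1 read 7.79 and 6.41 without Dox and 1.64 and 1.58 with Dox, a fall of 4.39-fold (-2.13 ± 0.14 on the log2 scale, limma adjusted p = 5.37e-07). The binding protein Igfbp2 fell 2.40-fold, from 111 and 106 to 45.5 and 44.9, the clearance receptor Igf2r fell 1.69-fold and the RNA-binding Igf2bp3 fell 1.83-fold. Igfbp3 was the exception, at 8.49 and 9.57 without Dox and 12.0 and 11.2 with Dox, a difference that did not pass without Dox(-) array 1 or Dox(+) array 1. Of the receptor tyrosine kinases and their ligands, 5 of 26 rose (2 without Dox(+) array 1 or either Dox(-) array) and 10 fell (6 without Dox(+) array 2). Gfra3, the co-receptor of artemin, rose 14.4-fold, from 0.816 and 0.654 to 11.04 and 10.1, and the ligand of Kit, Kitl, rose 1.88-fold. Pdgfc fell 4.48-fold, from 71.6 and 66.2 to 16.5 and 14.4, and hepatocyte growth factor (Hgf) fell 2.80-fold. Erbb3, the neuregulin receptor, was at 31.5 and 32.9 without Dox and at 5.09 on the only Dox(+) array with a value.

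Genes that are switched on within minutes by growth factors, and the phosphatases that shut the ERK kinases off again, divided. Of 22 measured, 8 fell, among them Ier3 (3.96-fold) and Ier2 (2.41-fold, 1 array with no value), and the 4 that rose were all dual-specificity phosphatases. Dusp4 read 6.91 and 6.97 without Dox and 22.7 and 26.2 with Dox (3.52-fold higher), Dusp6 rose 1.66-fold, Dusp1 rose 1.70-fold and Dusp10 rose 1.34-fold, the last not passing without Dox(-) array 1 or Dox(+) array 1. In the TGF-beta group, whose ligand activin was added to both cultures, the isoforms of the ligand moved apart. Tgfb2 rose from 3.63 and 3.73 to 12.2 and 11.6 (3.23-fold, 1.69 ± 0.11 on the log2 scale, limma adjusted p = 6.75e-07), and Tgfb1 fell from 25.4 and 26.3 to 10.7 and 10.1 (2.48-fold, -1.31 ± 0.10 on the log2 scale, limma adjusted p = 1.53e-06). The co-receptor Tgfbr3 and the latency protein Ltbp1 fell 3.18-fold and 3.17-fold.

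RGS proteins shorten the signal of G-protein-coupled receptors, and most of those measured rose. Of 17, 10 were higher (58.8%) and 4 lower, with a median of 0.84. With the floor raised to 1, which levels out dim genes, 7 were higher and 3 lower and the median was 0.30. Rgs4 was at 0.27 and 0.491 in Dox(-) EBs, with 1 array at background, and at 16 and 15.8 in Dox(+) EBs (5.45 ± 0.23 on the log2 scale, limma adjusted p = 2.48e-08). Rgs7 rose at least 6.85-fold and Rgs17 2.51-fold. The members that fell include Rgs18, a gene of platelets (4.87-fold, 1 Dox(+) array at background), Rgs10, which is abundant in macrophages (2.84-fold), and Rgs14 (1.47-fold). For Rgs9 the difference of -0.29 did not pass without Dox(-) array 1, Dox(-) array 2 or Dox(+) array 1, and a dimmer Rgs9 probe rose at least 4.30-fold. The enzymes that make and break cyclic AMP, the second messenger of the glucagon and incretin receptors, also leaned upwards, with 14 of 29 higher and 5 lower (median 0.66). Adcy8, a calcium-stimulated adenylyl cyclase, read 0.913 and 0.905 without Dox and 10.9 and 10.3 with Dox and rose 11.6-fold (3.54 ± 0.19 on the log2 scale, limma adjusted p = 1.67e-07), whereas Adcy7 fell 3.52-fold, from 13.9 and 12.6 to 3.74 and 3.77. Among the phosphodiesterases, Pde1b rose 7.15-fold (1 Dox(-) array at background), Pde8b fell 6.06-fold, from 2.23 and 2.10 to 0.344 and 0.370, Pde4b fell 1.76-fold and Pde4c 1.59-fold. For Adcy8, Adcy7 and Pde8b the groups did not overlap.

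**Figure D3:**
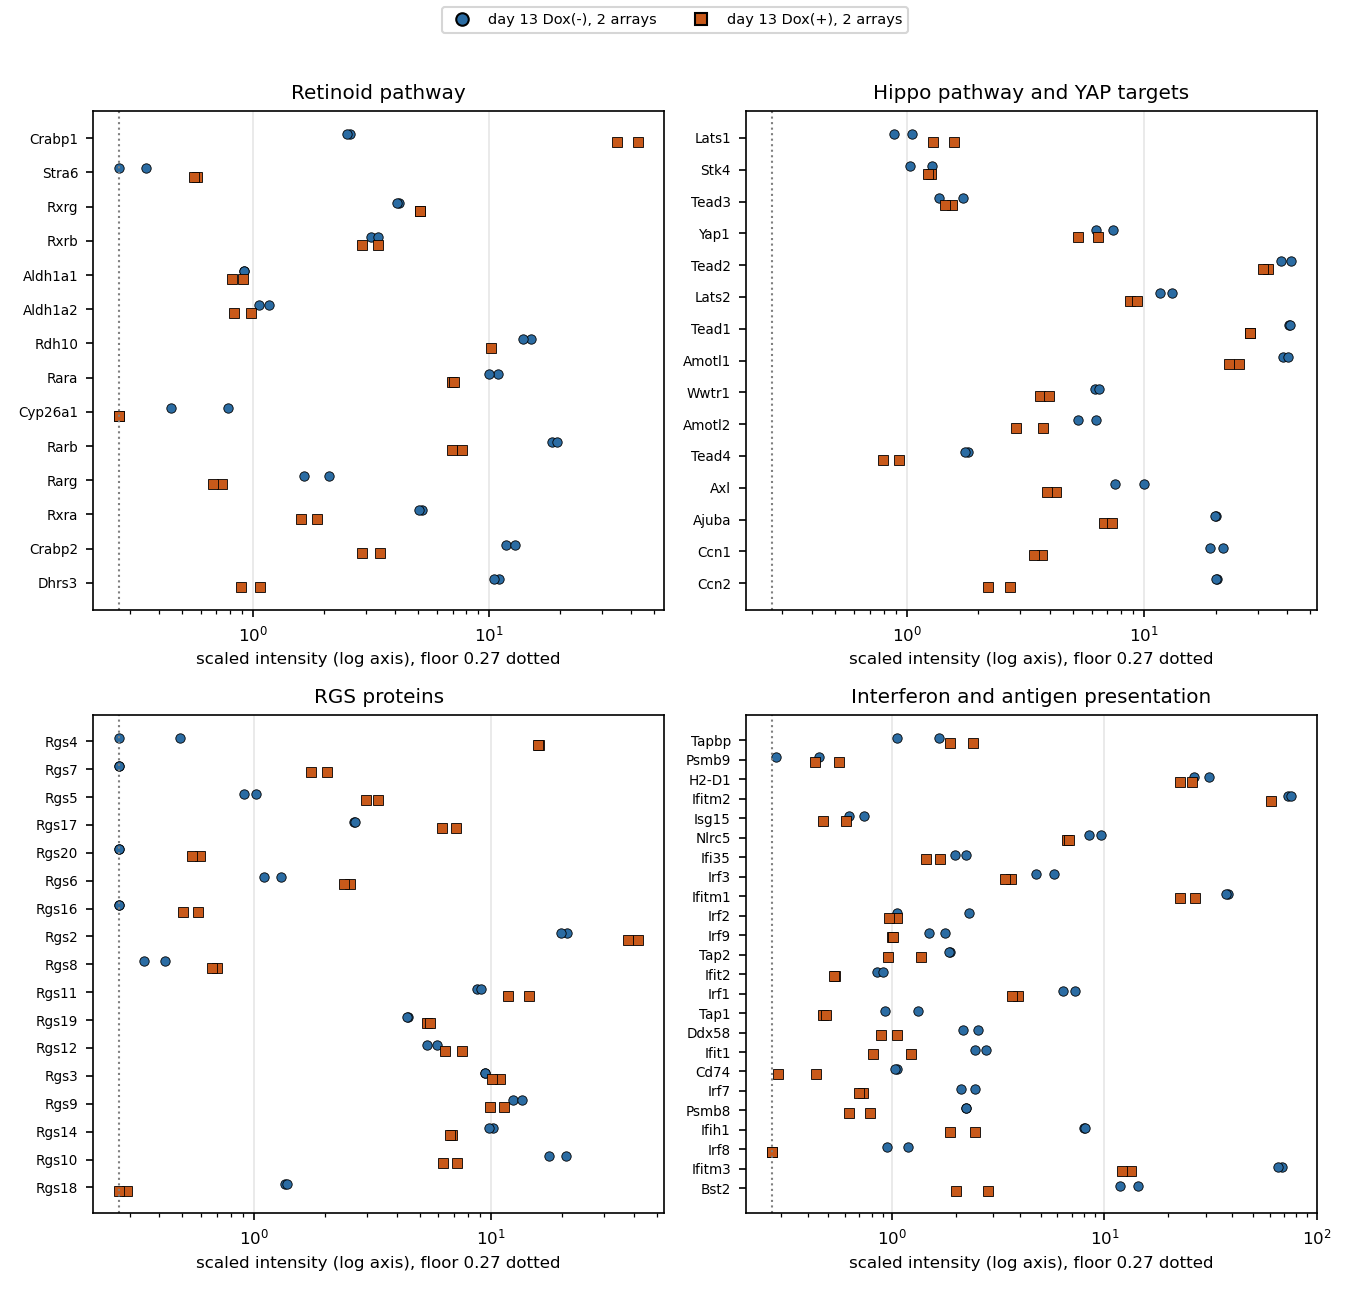
Level on each of the 4 EB arrays (log axis, array median = 1) of the measured retinoid, Hippo, RGS and interferon genes, with points coloured by group. Dhrs3, Ccn1, Ccn2 and Ifitm3 stand lower on both Dox(+) arrays and Crabp1 and Rgs4 stand higher.

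Interferon-stimulated genes and genes of antigen presentation were lower in Dox(+) EBs. Of 24 measured, 18 fell (75%) and 0 rose, with a median of -0.71. The antiviral membrane protein Ifitm3 read 68.9 and 66.0 without Dox and 13.3 and 12.0 with Dox and fell 5.32-fold (-2.41 ± 0.10 on the log2 scale, limma adjusted p = 1.68e-08), and tetherin (Bst2) read 11.9 and 14.5 without Dox and 2.81 and 2.00 with Dox and fell 5.53-fold (-2.47 ± 0.17 on the log2 scale, limma adjusted p = 1.14e-06). Psmb8, a subunit of the immunoproteasome, fell 3.18-fold, and Irf8, a transcription factor of myeloid cells, fell at least 3.93-fold to the floor. The core of the interferon-stimulated response element, read here as GAAA, any 2 bases and GAAA again, stood in 8 of 21 promoters of the list (38.1%) and in 3.99% of all. Of these 8, 6 fell and 2 did not pass. The promoters of Ifitm3 (chr7:141010695-141010994, minus strand) and Bst2 (chr8:71537423-71537722, minus strand) are shown in the same way, because both hold the motif in 2 places and had the smallest adjusted p of the 6 that fell.
Ifitm3: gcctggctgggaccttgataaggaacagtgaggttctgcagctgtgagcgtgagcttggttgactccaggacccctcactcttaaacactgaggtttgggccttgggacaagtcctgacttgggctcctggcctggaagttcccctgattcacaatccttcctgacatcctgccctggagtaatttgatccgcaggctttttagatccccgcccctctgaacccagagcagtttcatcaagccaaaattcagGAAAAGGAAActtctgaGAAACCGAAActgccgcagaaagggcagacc
Bst2: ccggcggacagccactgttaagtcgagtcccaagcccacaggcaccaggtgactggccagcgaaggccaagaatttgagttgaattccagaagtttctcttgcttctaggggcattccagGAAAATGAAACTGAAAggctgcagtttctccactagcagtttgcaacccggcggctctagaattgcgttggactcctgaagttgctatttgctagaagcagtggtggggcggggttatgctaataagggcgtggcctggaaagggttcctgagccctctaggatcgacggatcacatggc
In Bst2 the matches overlap and are written as 1 run of capitals.

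Complement genes moved the same way, with 10 of 16 lower and 1 higher (median -1.41). The 3 chains of C1q, which macrophages make, fell furthest. C1qb read 45.8 and 40.2 without Dox and 2.01 and 1.56 with Dox (24.2-fold, -4.60 ± 0.13 on the log2 scale, limma adjusted p = 1.43e-09), C1qc fell 22.4-fold, C1qa fell 6.75-fold and the anaphylatoxin receptor C3ar1 fell 12.9-fold. The member that rose was Serping1, the inhibitor of C1, which read 4.55 and 5.03 without Dox and 23.6 and 17.7 with Dox (4.28-fold higher). Of the chemokines and their receptors 11 of 21 fell and 5 rose. Ccl6 fell 12.4-fold (1 Dox(+) array at background), Ccl5 at least 5.28-fold and Ccl9 at least 4.51-fold. Those that rose were Ackr3, a scavenging receptor of Cxcl12 (2.13 and 1.87 to 6.04 and 6.31, 3.09-fold), Ccl27a (2.92-fold), Ccl25 (2.14-fold), Cxcl15 (2.85-fold) and Cxcl13 (2.19-fold, 1 Dox(-) array at background). Cytokine receptors and JAK-STAT genes fell in 11 of 22 cases and rose in 3, with Il13ra1 (5.05-fold), Stat6 (3.22-fold) and Socs1 (2.16-fold) lower and Socs2 higher (5.32 and 4.78 to 12.8 and 12.5, 2.51-fold). Of the TNF family 12 of 25 fell (6 without Dox(+) array 2), among them Tnfsf10 (2.86-fold), Tnfrsf11a (2.72-fold) and Tnfrsf1a (2.06-fold), and Tnfrsf21, the death receptor 6, rose at least 5.19-fold. Markers of macrophages and leukocytes fell in 18 of 20 cases (median -2.51), with Tyrobp at 20.9 and 20.0 without Dox and 0.934 and 0.771 with Dox and Fcer1g at 14.4 and 13.6 without Dox and 0.724 and 0.582 with Dox. Lyve1, which lymphatic endothelium shares with some macrophages, was the member that rose (2.99-fold). The part of these cells in the falls of interferon, complement and cytokine genes was not tested.

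Proteins of the basement membrane other than collagens were lower, with 12 of 18 below and 2 above (median -0.95). Frem2 and Fras1, which form a complex under embryonic epithelia, fell 6.72-fold and 2.86-fold. Frem2 read 6.20 and 7.01 without Dox and 0.982 and 0.980 with Dox (-2.75 ± 0.17 on the log2 scale, limma adjusted p = 4.11e-07). The laminin chain Lamb3 fell 5.73-fold and nidogen (Nid1) 3.57-fold, from 16.7 and 18.4 to 4.57 and 5.26. Lama2, the chain of muscle and nerve, rose 1.93-fold, and Egfl6 moved by 0.49, which did not pass without either Dox(-) array or Dox(+) array 1. In the interstitial matrix 13 of 24 genes fell and 4 rose (median -0.65). The small proteoglycan lumican (Lum) read 76.6 and 75.1 without Dox and 5.76 and 5.47 with Dox (13.5-fold lower, -3.76 ± 0.09 on the log2 scale, limma adjusted p = 3.15e-10), decorin (Dcn) fell 6.44-fold and thrombospondin 2 (Thbs2) 7.00-fold. Osteonectin (Sparc) fell 2.80-fold, from 218 and 219.6 to 81.0 and 75.5, whereas its relative Sparcl1 rose 2.62-fold, from 9.10 and 10.2 to 24.7 and 25.8. No array of one group reached the other for Sparc or Sparcl1. The other rises were those of Fbln2 (2.07-fold), Matn2 (1.82-fold) and Mfap2 (1.61-fold).

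Enzymes that crosslink or cut the matrix fell in 13 of 26 cases and rose in 6, the latter 3 without Dox(-) array 1, at a floor of 1 and after normexp with quantile normalization. Lysyl oxidase (Lox) read 8.68 and 9.60 without Dox and 1.38 and 1.82 with Dox (5.75-fold lower), the prolyl hydroxylase subunit P4ha3 fell 6.52-fold, and the membrane protease Mmp14 fell 2.04-fold. Serine protease inhibitors of the serpin family fell in 18 of 28 cases (median -0.97). Serpinb6b read 15.4 and 17.2 without Dox and 0.813 and 0.854 with Dox (19.5-fold lower, -4.29 ± 0.12 on the log2 scale, limma adjusted p = 1.72e-09), Serpina10 fell 6.92-fold and Serpina1e 3.70-fold. Serpini1 (neuroserpin) was 1 of the 2 that rose, from 1.81 and 1.69 to 15.2 and 13.98 (8.34-fold). Several serpins are close copies of each other, Serpina1e among them, so that their probes may share signal.

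Cadherins and protocadherins went the other way from the matrix. Of 24 measured, 16 rose (66.7%) and 6 fell, with a median of 0.94. With the floor raised to 1, which levels out dim genes, 7 rose and 5 fell and the median was 0.00. N-cadherin (Cdh2) read 2.61 and 2.96 without Dox and 12.0 and 9.65 with Dox and rose 3.87-fold (1.95 ± 0.15 on the log2 scale, limma adjusted p = 1.9e-06). Pcdh19 rose 5.19-fold, and Cdh22 was at 0.523 and 0.585 without Dox and at 7.22 on the only Dox(+) array with a value. Cdh17, the cadherin of intestinal epithelium, fell 5.19-fold, from 19.8 and 20.4 to 4.42 and 3.39. Of the integrins 8 of 19 fell. They include the epithelial subunits Itgb6 (5.66-fold) and Itgb4 (4.53-fold), the platelet subunit Itga2b (21.9-fold, 1 Dox(+) array at background) and the leukocyte subunit Itgb2 (at least 4.40-fold), while Itga9 rose from 3.59 and 3.65 to 12.2 and 10.8 (3.17-fold) and Itga1 rose 1.67-fold. Ephrins and their receptors, which keep neighbouring cells apart, were even in number, with 6 of 21 higher and 6 lower. Both shares (28.6%) are close to those over all genes. Efnb3 rose 3.65-fold and Epha10 4.64-fold (1 Dox(-) array at background), and the epithelial receptors Epha2 and Epha1 fell 3.98-fold and 4.44-fold.

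Keratins and other intermediate filaments fell in 9 of 13 cases, and none rose. Krt19 read 81.9 and 80.5 without Dox and 9.31 and 10.4 with Dox (8.26-fold lower, -3.05 ± 0.11 on the log2 scale, limma adjusted p = 9.75e-09), Krt20 fell 6.10-fold, and Krt23 fell 3.95-fold. The annexins and S100 proteins, which bind calcium and membranes, were lower in 18 of 21 cases (85.7%, median -1.35). S100g, the vitamin D-dependent calcium binder of the gut, read 43.5 and 37.0 without Dox and 2.62 and 2.82 with Dox (14.8-fold lower), and S100a6 read 107 and 113 without Dox and 15.9 and 13.99 with Dox (7.36-fold lower, -2.88 ± 0.09 on the log2 scale, limma adjusted p = 2.08e-09). Annexins Anxa3 and Anxa1 fell 5.67-fold and 5.34-fold. S100b, a protein of glia, stood at the floor without Dox and at 0.367 and 0.340 with Dox, and this did not pass without either Dox(-) array or Dox(+) array 1.

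Contractile genes of smooth muscle and of the actin cytoskeleton fell in 20 of 28 cases (71.4%) and rose in 3, with a median of -0.53. Of the 20, 1 was saturated on all 4 arrays. Actg2, the enteric smooth muscle actin, read 7.05 and 8.80 without Dox and 1.02 and 0.991 with Dox (7.85-fold lower), Tagln fell 3.70-fold, calponin 2 (Cnn2) fell 3.40-fold from 49.7 and 54.4 to 15.9 and 14.7, and the non-muscle myosin Myh9 fell 2.30-fold from 246 and 219 to 105 and 97.1. The rises were those of caldesmon (Cald1, 1.66-fold) and of the PDZ and LIM proteins Pdlim3 (2.06-fold) and Pdlim7 (1.90-fold). Many such genes are switched on by serum response factor through the CArG box. This box stood in 6 of 23 promoters of the list (26.1%) and in 1.81% of all, and of the 6 genes 4 fell and 2 did not pass. The promoters of Cnn2 (chr10:79988350-79988649, plus strand) and Myl9, a myosin light chain (chr2:156775214-156775513, plus strand), are printed because they hold the box and had the smallest adjusted p of the 4 that fell. Myl9, named for its promoter after the values were seen, read 32.9 and 44.1 without Dox and 17.1 and 15.3 with Dox (2.36-fold lower).
Cnn2: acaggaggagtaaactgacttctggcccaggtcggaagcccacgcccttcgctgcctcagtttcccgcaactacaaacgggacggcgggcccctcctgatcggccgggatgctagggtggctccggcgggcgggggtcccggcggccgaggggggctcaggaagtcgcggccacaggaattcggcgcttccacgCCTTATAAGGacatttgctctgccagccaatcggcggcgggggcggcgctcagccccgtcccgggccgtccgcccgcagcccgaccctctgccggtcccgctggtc
Myl9: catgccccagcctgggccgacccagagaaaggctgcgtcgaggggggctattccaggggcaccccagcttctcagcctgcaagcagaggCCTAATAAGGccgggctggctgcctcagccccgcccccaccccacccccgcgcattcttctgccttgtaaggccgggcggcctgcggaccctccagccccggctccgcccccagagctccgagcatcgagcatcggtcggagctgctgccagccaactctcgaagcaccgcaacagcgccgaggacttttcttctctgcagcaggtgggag
Unconventional myosins fell in 11 of 17 cases, with Myo1f, a leukocyte gene, at 8.36 and 6.84 without Dox and 0.636 and 0.554 with Dox and Myo1d at 18.4 and 18.3 without Dox and 6.75 and 6.15 with Dox. Markers of heart muscle fell in 18 of 21 cases, Actc1 from 51.3 and 73.5 to 4.21 and 4.68, and their part in the falls of contractile genes was not tested.

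Genes of cilia were more often higher than lower, with 16 of 30 up (53.3%), 2 down and a median of 0.33. The primary cilium is a sensory antenna, and its transport complex, the BBSome, carries receptors. The BBSome subunits Bbs2 and Bbs4 rose 2.58-fold and 2.31-fold. Bbs4 read 9.35 and 9.50 without Dox and 21.4 and 22.2 with Dox (1.21 ± 0.08 on the log2 scale, limma adjusted p = 5.22e-07). The axonemal dynein Dnah9 rose 6.76-fold (1 Dox(-) array at background). Hydin, of motile cilia, fell 2.46-fold, and Rfx3, a factor that drives ciliary genes and is needed in endocrine cells, fell 2.17-fold, from 28.8 and 30.3 to 14.6 and 12.6, on its brighter probe. The other Rfx3 probe read 5.16 and 5.18 without Dox and 13.0 and 11.6 with Dox and rose 2.37-fold, so that the direction of Rfx3 is not settled. GTTGCCA, which is part of the X-box read by Rfx factors, stood in 6 of 26 promoters of the list (23.1%) and in 5.02% of all. Of the 6 genes 4 rose, 1 fell and 1 did not pass. The promoter of Bbs1 (chr19:4906578-4906877, minus strand), another BBSome subunit, which read 1.10 and 1.06 without Dox and 3.67 and 3.01 with Dox, is shown as the member with the motif that rose with the smallest adjusted p, so that it was named after its values were known.
Bbs1: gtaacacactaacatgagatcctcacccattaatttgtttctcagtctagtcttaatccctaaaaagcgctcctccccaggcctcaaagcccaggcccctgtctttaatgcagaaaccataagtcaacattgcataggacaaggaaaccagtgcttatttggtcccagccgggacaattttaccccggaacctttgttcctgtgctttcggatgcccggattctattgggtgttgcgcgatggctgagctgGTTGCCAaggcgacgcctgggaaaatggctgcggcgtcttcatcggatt
In these letters the capitals mark the motif or its reverse complement, as before.

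**Figure D4:**
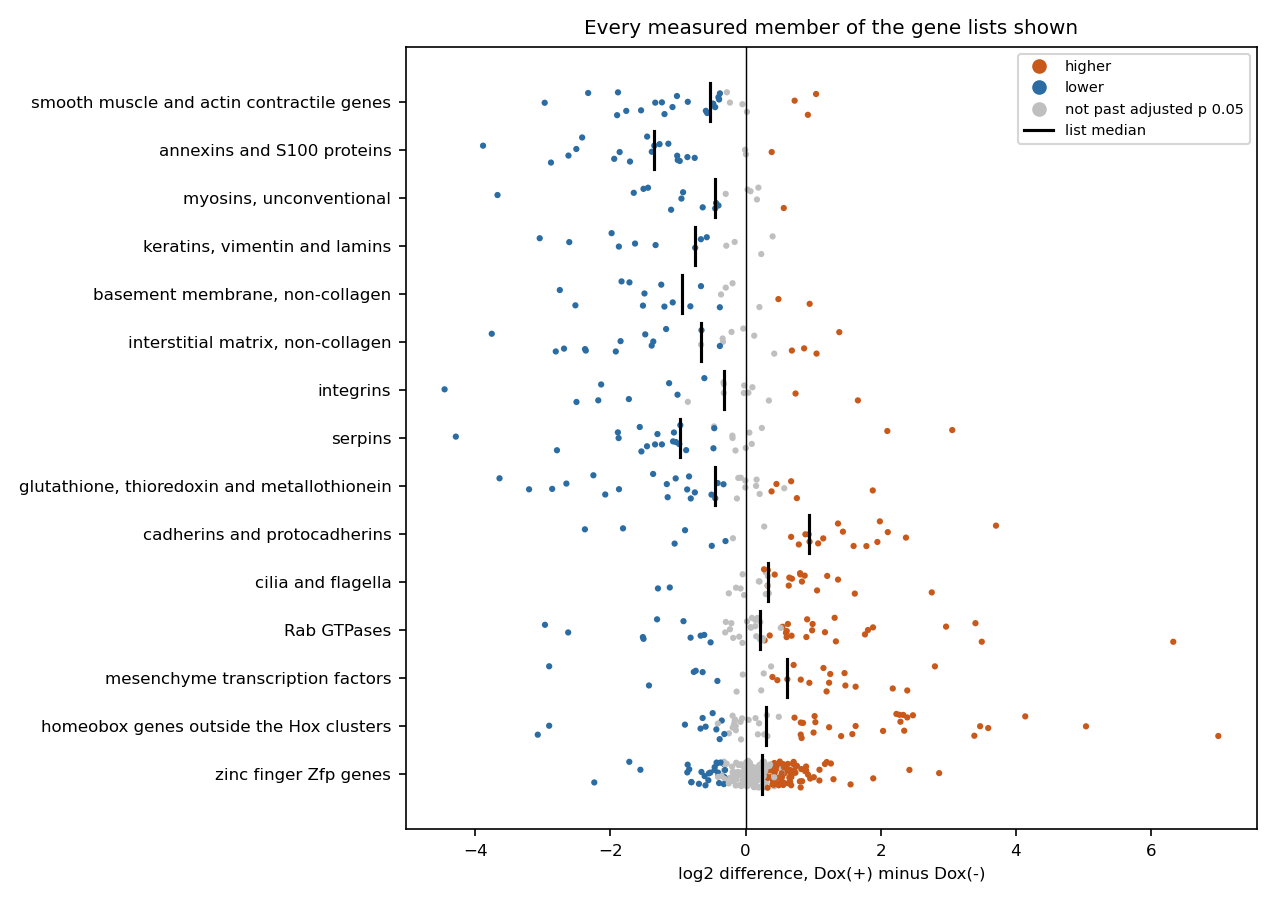
Dox(+) minus Dox(-) difference (log2) of every measured member of 15 lists, 1 point a gene, coloured for genes that passed the limma test in either direction and grey for the others, with bars at the list medians. Annexin, keratin, serpin and matrix genes lie mostly below 0, whereas cadherin and mesenchyme factor genes lie mostly above 0.

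Small GTPases of the Rab family direct vesicles, and 22 of 52 rose while 10 fell (median 0.22). The isoforms of Rab3, which act at secretory vesicles, stood out. Rab3c read 0.27 on both arrays without Dox and 23.2 and 20.4 with Dox (at least 79.4-fold), Rab3b rose 10.6-fold, Rab3a rose 7.83-fold, and Rab37, another GTPase of secretory granules, rose 11.3-fold. Both Dox(-) arrays of Rab3c lay at the floor. The V-ATPase, the proton pump that acidifies vesicles, had 8 of 17 subunits higher and 1 lower (median 0.35). Atp6v0e2 read 19.3 and 17.8 without Dox and 50.1 and 45.6 with Dox (2.59-fold, 1.37 ± 0.10 on the log2 scale, limma adjusted p = 1.98e-06), and Atp6v0a1 and Atp6v1a rose 2.01-fold and 2.02-fold. Atp6v1g2 left the floor and rose at least 4.00-fold. Lysosomal enzymes went down more often than up, with 13 of 26 lower and 3 higher. Acid lipase (Lipa) fell 4.04-fold, progranulin (Grn) fell 2.09-fold, from 52.2 and 46.5 to 24.5 and 22.7, and cathepsin D (Ctsd) fell 1.87-fold, from 103 and 106 to 57.8 and 53.9. Cathepsin F (Ctsf) rose 1.78-fold, from 19.7 and 18.0 to 33.5 and 33.4. Both arrays of Dox(+) EBs lay above both of Dox(-) EBs for Ctsf and below them for Lipa, Grn and Ctsd. Of the ER translocation and coat genes 14 of 49 fell (28.6%, close to the 25.1% over all genes) and 7 rose (14.3%), with a median of -0.13. These counts turned to 11 and 13 after quantile normalization (median 0.07). Creb3l1, a membrane-bound factor of secretory cells, fell 4.23-fold, from 20.5 and 22.1 to 4.95 and 5.12, and the retrieval receptor Kdelr3 fell 2.48-fold.

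Glycosyltransferases shape the sugars of the cell surface, and similar parts of the list moved each way, 12 higher and 11 lower of 39, both shares close to those over all genes. Without Dox(+) array 2 the falls numbered 6. St8sia2, which builds polysialic acid, read 0.446 and 0.697 without Dox and 9.55 and 9.15 with Dox (16.8-fold higher, 4.07 ± 0.31 on the log2 scale, limma adjusted p = 2.08e-06). The ganglioside enzyme St8sia5 rose at least 9.38-fold and the mucin-type enzyme Galnt13 at least 5.48-fold, whereas Galnt3 fell 3.01-fold. Among the tetraspanins Tspan2 rose 3.99-fold and Tspan8, of gut epithelium, read 77.8 and 74.4 without Dox and 9.68 and 6.72 with Dox (9.44-fold lower).

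Carriers of solutes moved in both directions in equal number, 72 higher and 72 lower of 280 (25.7% each way, close to the shares over all genes). The largest rise among those of amino acids was that of Slc38a5, a glutamine transporter. It read 5.74 and 5.30 without Dox and 199 and 157 with Dox, with 1 Dox(+) spot saturated, and the fold of these levels was 32.0 (5.00 ± 0.11 on the log2 scale, limma adjusted p = 3.03e-10). The glutamate carriers Slc1a1 and Slc1a2 rose 5.65-fold and at least 3.78-fold, and the cystine carrier of kidney and gut, Slc7a9, fell 10.5-fold, from 3.12 and 3.49 to 0.332 and 0.299. The choline-like carrier Slc44a5 rose at least 23.6-fold. Of the sodium pump and its partners, Atp1b1 read 12.0 and 13.4 without Dox and 47.7 and 43.1 with Dox (3.58-fold higher) and the modulator Fxyd6 read 4.48 and 4.72 without Dox and 24.3 on both arrays with Dox (5.28-fold higher). The carbonic anhydrases divided, with Car13 lower (15.4 and 15.52 to 2.67 and 2.31, 6.24-fold) and the inactive relative Car11 higher (3.11-fold). Zinc importer Slc39a6 rose 2.09-fold, from 30.8 and 29.4 to 63.0 and 62.7, and Slc39a4 fell 3.23-fold (1 Dox(+) array at background). The iron carrier transferrin (Trf) fell 6.62-fold, from 20.0 and 25.1 to 3.70 and 3.09, while Abcb10, Uros and Urod, of haem synthesis, rose 2.58-fold, 2.68-fold and 1.64-fold. Over the orphan and adhesion receptors 17 of 64 rose and 18 fell (9 without Dox(+) array 2), shares close to those over all genes, with Adgrl3 (at least 18.6-fold) and Adgrb3 (0.603 and 0.483 to 9.63 and 7.99, 16.3-fold) among the rises. Of 256 olfactory receptor genes above background, 10 rose (3.91%) and 44 fell (17.2%), both shares below those over all genes, with a median of -0.15. The falls numbered 25 without Dox(-) array 1, 27 without Dox(+) array 1 and 22 without Dox(+) array 2, and the rises 6 without Dox(+) array 1. Olfactory receptors form a large family of similar genes whose probes may share signal, and Olfr812 fell 4.88-fold, from 49.7 and 50.0 to 10.1 and 10.3.

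Homeobox genes outside the Hox clusters rose more often than they fell, 26 against 11 of 58 (median 0.30). The falls numbered 6 without Dox(-) array 1 and 7 without Dox(+) array 1, and with the floor raised to 1 the counts were 22 and 6 with a median of 0.00. Pax6, a paired homeobox factor of endocrine cells, eye and brain, read 0.296 and 0.27 without Dox and 37.2 and 35.2 with Dox (at least 128-fold, 7.00 ± 0.11 on the log2 scale, limma adjusted p = 2.87e-11), Nkx2-2 rose at least 32.4-fold and Tlx1 at least 17.4-fold. Pitx1, of hindlimb and mouth, fell 7.50-fold, from 10.5 and 11.4 to 1.35 and 1.57. Factors of embryonic mesenchyme rose in 16 of 27 cases (59.3%) and fell in 6 (median 0.62). Six2 read 0.810 and 0.746 without Dox and 4.32 and 3.86 with Dox (5.26-fold higher), Osr1 read 0.990 and 1.16 without Dox and 4.78 and 4.94 with Dox (4.53-fold higher, 2.18 ± 0.13 on the log2 scale, limma adjusted p = 2.55e-07), and Tbx18 rose at least 6.98-fold. None of the Dox(-) arrays reached the Dox(+) level for Six2, Osr1 or Tbx18. The matrix proteins of mesenchyme lumican and decorin, given with the interstitial matrix, fell. Tbx20, a T-box factor of heart, fell 7.44-fold, whereas Tbx2 and Tbx3 rose 1.93-fold and 1.54-fold.

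Sox3, of neural progenitors, rose at least 8.25-fold from the floor and Sox21 rose 2.14-fold, whereas Sox5 and Sox1 fell 2.24-fold and 1.44-fold. In the Forkhead family Foxo6 rose 10.4-fold and Foxq1 fell 20.2-fold, from 8.65 and 13.0 to 0.616 and 0.446. Foxa2 and Foxa1, which open chromatin in early endoderm, moved in opposite directions, Foxa2 from 3.02 and 3.21 to 11.1 and 10.0 (1.76 ± 0.11 on the log2 scale, limma adjusted p = 5.12e-07) and Foxa1 from 14.3 and 14.8 to 5.85 and 5.51 (-1.36 ± 0.09 on the log2 scale, limma adjusted p = 6.59e-07). Krueppel-like factors fell in 6 of 14 cases, with Klf5, of epithelia, at 37.7 and 42.6 without Dox and 7.24 and 6.01 with Dox (6.08-fold) and Klf4 at 26.8 and 23.4 without Dox and 7.75 and 8.61 with Dox (3.06-fold). The nuclear receptors Nr2f1 and Nr3c2, the mineralocorticoid receptor, rose 4.64-fold and 4.19-fold, and Nr5a2, a receptor of exocrine pancreas and liver, fell 5.84-fold, from 5.09 and 4.44 to 0.874 and 0.759. Id proteins lack a DNA-binding domain and hold basic helix-loop-helix factors inactive. Id4 rose at least 9.97-fold, from 0.27 on both arrays to 2.75 and 2.72, Id2 fell 2.59-fold, from 135 and 133 to 55.4 and 47.9, Id1 did not pass the limma test (8.24 and 8.83 without Dox and 10.5 and 10.98 with Dox, adjusted p = 0.416), and Id3 (18.9 and 17.7 without Dox and 27.7 and 23.5 with Dox) did not pass when any 1 of the 4 arrays was left out. Genes named Zfp, mostly zinc finger factors of unknown target, rose in 89 of 238 cases (37.4%) and fell in 28 (median 0.25), with 53 higher without Dox(+) array 1 and 17 lower without Dox(+) array 2. Zfp423 read 5.66 and 5.92 without Dox and 43.0 and 41.5 with Dox (7.29-fold higher, 2.87 ± 0.10 on the log2 scale, limma adjusted p = 5.26e-09) and Zfp503 rose 2.94-fold, while Zfp36, which is no factor but destabilises AU-rich messages, fell 3.29-fold.

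Other lineages were read by their markers. Of the platelet list 11 of 13 fell and none rose (median -3.57), and of red cell genes 10 of 14 fell, Hba-x at least 10.99-fold, with Lmo2 higher (2.53-fold). Endothelial genes divided, 5 higher and 5 lower of 19 (26.3% each, close to the shares over all genes), Emcn and Pecam1 rising 2.83-fold and 2.04-fold and Vwf, which platelets share, falling 5.99-fold. In the yolk sac and visceral endoderm list 12 of 16 fell, such as the endocytic genes Dab2 (9.12-fold) and Cubn (at least 7.13-fold). The 4 members that rose are signals and factors of anterior visceral endoderm and also of other tissues, namely Cer1 (from 0.495 and 0.27 to 14.7 and 11.5, 35.5-fold, 1 Dox(-) array at background), Hhex (from 0.598 and 0.607 to 8.74 and 7.16, 13.1-fold), Otx2 (at least 5.49-fold) and Cited1 (2.90-fold). Of the stomach list, the trefoil peptide Tff1 read 11.7 and 10.7 without Dox and 1.27 and 1.39 with Dox (8.45-fold lower) and gastrokine Gkn2 fell at least 5.22-fold. Tuft cells are chemosensory cells of the gut. Their marker Dclk1, which neurons share, left the floor on its brighter probe and read 18.9 and 17.1 in Dox(+) EBs (at least 65.5-fold). The other Dclk1 probe read 1.06 and 1.07 without Dox and 0.926 and 0.712 with Dox and did not pass. Plcg2 (5.72-fold), Alox5ap (3.63-fold), Ltc4s (2.81-fold) and Alox5 (at least 1.53-fold) fell. Fabp7, of radial glia, rose 8.37-fold while the neural crest gene Ednrb fell 1.89-fold. Pou5f1, of pluripotent cells, read 4.04 and 3.75 without Dox and 2.22 and 2.11 with Dox (1.80-fold lower).

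In intermediary metabolism, glutathione enzymes, peroxiredoxins and metallothioneins were lower in 19 of 33 cases and higher in 5 (3 without Dox(+) array 2), with a median of -0.45. Metallothioneins hold zinc and copper, and Mt2 read 149.5 and 172 without Dox and 13.2 and 12.5 with Dox (12.5-fold lower, -3.64 ± 0.18 on the log2 scale, limma adjusted p = 6.85e-08). Mt1 was saturated on both Dox(-) arrays and fell at least 4.22-fold (2 saturated spots). The glutathione transferases Gstm1 and Mgst2 fell 7.27-fold and 9.21-fold, Gstm1 from 148 and 147 to 20.9 and 19.7. Gpx2 rose 3.69-fold and the mitochondrial Prdx3 1.60-fold. Cytochrome P450 genes fell in 17 of 39 cases and rose in 5. Cyp2s1 read 34.6 and 34.9 without Dox and 1.41 and 1.54 with Dox (23.6-fold lower, -4.56 ± 0.11 on the log2 scale, limma adjusted p = 3.37e-10), and Cyp11a1, which starts steroid synthesis, and Cyp3a13 fell at least 7.49-fold and 5.94-fold. Cyp46a1, the cholesterol hydroxylase of brain, and Cyp4b1 rose 3.84-fold and 5.80-fold.

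Glycolytic genes fell in 11 of 20 cases and rose in 2 (median -0.46). Hexokinase 2 (Hk2) read 37.5 and 35.9 without Dox and 12.6 and 15.4 with Dox (2.63-fold lower, -1.40 ± 0.12 on the log2 scale, limma adjusted p = 4.45e-06). The rises were those of Ldhb, the lactate dehydrogenase subunit that favours the step from lactate to pyruvate (12.0 and 14.7 to 22.7 and 22.8, 1.71-fold), and of Pfkm (1.59-fold). Genes known to respond to hypoxia fell in 7 of 14 cases and none rose, with Ndrg1 2.10-fold and Adm 2.37-fold lower. Enzymes of fatty acid oxidation fell in 8 of 18 cases, for example Hadh from 35.5 and 31.6 to 20.0 and 16.5 (1.85-fold) and Acadl from 51.3 and 50.9 to 29.0 and 27.7 (1.80-fold), and Etfdh was the 1 that rose (1.51-fold). In cholesterol synthesis 5 of 20 rose and none fell. Sqle read 2.05 and 2.58 without Dox and 4.97 and 4.14 with Dox (1.97-fold higher) and Tm7sf2 read 18.4 and 17.8 without Dox and 34.8 and 33.0 with Dox (1.87-fold higher), while Cyp51 and Mvd, with folds of 1.38-fold and 1.23-fold, did not pass when any 1 of the 4 arrays was left out. The count was 3 without Dox(-) array 1 and without either Dox(+) array, and a share of 25% is close to the 26.5% over all genes. Elovl4, which makes very long chain fatty acids, rose 5.65-fold, from 3.33 and 3.01 to 18.4 and 17.4, and Elovl6 fell 2.10-fold. ATP citrate lyase (Acly), which feeds acetyl groups to both pathways, rose 2.43-fold, from 11.9 and 12.9 to 31.6 and 28.7, and malic enzyme 2 (Me2) fell 2.89-fold. Shmt1 and Phgdh, of serine and one-carbon metabolism, fell 2.46-fold and 1.91-fold, whereas Mthfd2 and Asns, both targets of the amino acid response, rose 1.80-fold and 1.76-fold. Of the nucleotide and polyamine enzymes, Prps1, which makes the ribose donor of purine salvage and synthesis, read 1.57 and 1.77 without Dox and 16.3 and 12.8 with Dox (8.66-fold higher, 3.11 ± 0.12 on the log2 scale, limma adjusted p = 1.13e-08), and the polyamine catabolic Sat1 and adenosine kinase (Adk) fell 3.41-fold and 2.36-fold.

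DNA replication genes were lower in 13 of 29 cases and higher in 3 (median -0.24). Orc1 read 2.89 and 2.85 without Dox and 1.43 and 1.26 with Dox (2.14-fold lower), and the licensing factor Cdt1 read 56.2 and 51.2 without Dox and 31.4 and 32.3 with Dox (1.68-fold lower, -0.75 ± 0.08 on the log2 scale, limma adjusted p = 3.94e-05). Ribosome biogenesis genes fell in 16 of 28 cases (10 without Dox(-) array 2 and 8 without Dox(+) array 2), by small amounts in Pes1 (1.54-fold), Gnl3 (1.49-fold) and Nop2 (1.40-fold) and more in their regulator Mycn (7.64 and 9.96 to 3.67 and 3.15, 2.57-fold). Of the apoptosis genes 12 of 27 fell and 6 rose. Hrk, a BH3-only protein of neurons, read 0.741 and 0.939 without Dox and 18.4 and 16.8 with Dox (21.1-fold higher, 4.40 ± 0.15 on the log2 scale, limma adjusted p = 5.39e-09), while another BH3-only gene, Pmaip1, fell 3.73-fold, and Casp1 fell 5.00-fold (1 Dox(+) array at background). Targets of p53 and inhibitors of cyclin-dependent kinases fell in 11 of 23 cases and rose in 7 (4 without Dox(-) array 1 or Dox(+) array 1). Gadd45a read 10.2 and 14.2 without Dox and 47.7 and 39.0 with Dox (3.57-fold higher), whereas Gadd45b fell 4.62-fold and Phlda3 2.61-fold.

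Of the SWI/SNF chromatin remodelling complex 6 of 22 genes rose (27.3%, close to the 26.5% over all genes) and 3 fell. Dpf1 and Ss18l1, subunits known from neurons, rose 2.87-fold and 2.35-fold. Smarcc2 rose 1.80-fold, from 7.78 and 8.72 to 15.0 and 14.6, and its paralogue Smarcc1 fell 1.50-fold, from 13.8 and 15.48 to 10.2 and 9.28. Of the Polycomb, methylation and deacetylase genes 7 of 32 rose (4 without Dox(-) array 2 or without Dox(+) array 2) and 4 fell (2 without Dox(-) array 2 and 0 without Dox(+) array 2), both shares below those over all genes, with Hdac11 (2.48-fold) and Hdac2 (1.62-fold) higher. Esrp1, the splicing factor of epithelial cells, read 34.7 and 36.4 without Dox and 11.3 and 9.55 with Dox (3.42-fold lower, -1.78 ± 0.15 on the log2 scale, limma adjusted p = 4.79e-06), and Khdrbs3 read 15.7 and 14.6 without Dox and 42.3 and 41.0 with Dox (2.75-fold higher). Dnaj co-chaperones rose in 16 of 39 cases and fell in 4 (2 without Dox(-) array 1 or Dox(+) array 2), with Dnajc12, a partner of the aromatic amino acid hydroxylases, at 8.75 and 9.18 without Dox and 46.9 and 41.8 with Dox (4.94-fold higher, 2.30 ± 0.10 on the log2 scale, limma adjusted p = 4.12e-08).

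On the scale of intensity over the array median, genes with the highest levels read lower in Dox(+) EBs, which touches several housekeeping lists. Genes with a mean level of 1 to 4 had a median difference of 0.01, those from 32 to 64 of -0.19, those from 64 to 128 of -0.28, and the 101 genes above 128 of -0.50, of which 79.2% fell and 1.98% rose. The median net signal relative to the local background was 1.77 and 1.92 on the Dox(-) arrays and 2.49 and 2.63 on the Dox(+) arrays. Whether the scale or the messages differ was not tested. On this scale saturated spots began at a level of 231 on both Dox(-) arrays but at 162 and 161 on the Dox(+) arrays. Over the 297 genes above a level of 64 with no saturated spot the median was still -0.31. Cytosolic ribosomal proteins fell in 49 of 56 cases with a median of -0.59, but 24 of them were saturated on all 4 arrays, and of those with no saturated spot 20 fell. Rpl36 read 211 and 217 without Dox and 129 and 118 with Dox (1.73-fold lower), and Rpl26 read 14.7 and 15.98 without Dox and 8.34 and 8.04 with Dox (1.87-fold lower). After quantile normalization, which removes differences that depend on level alone, 22 of the 56 fell and the median was -0.17. Translation initiation factors turned from 9 higher and 17 lower of 46 to 11 and 7, and proteasome subunits from 5 and 7 of 37 to 11 and 2. Without quantile normalization the falls of initiation factors numbered 11 without Dox(-) array 1 and 9 without Dox(+) array 2, and those of proteasome subunits 3 without Dox(-) array 1 and 4 without each of the other 3 arrays. The rises of initiation factors numbered 4 without Dox(-) array 1 or Dox(+) array 1, and those of proteasome subunits 0 to 2 without 1 array. V-ATPase subunits went from 8 higher and 1 lower to 12 and 1. For the interferon list the counts were 0 and 16 after quantile normalization, for the Hippo list 1 and 11, and for the annexins and S100 proteins 1 and 18. Other lists kept their majority with a smaller median. Glycolysis went from -0.46 to -0.26 (2 higher and 9 lower) and the lysosomal genes from -0.32 to -0.17 (3 and 11). The median of the insulin-like growth factor axis went from -0.54 to -0.36 (1 and 7).

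**Figure D5:**
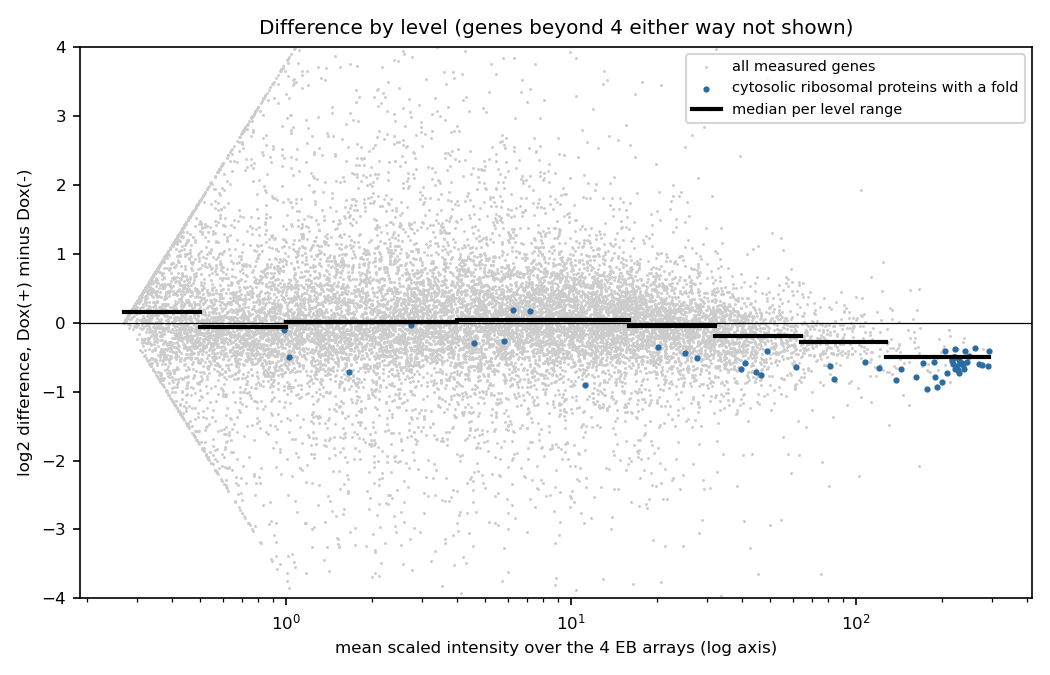
Dox(+) minus Dox(-) difference (log2) of each gene against its mean level over the 4 EB arrays (log axis, array median = 1), with ribosomal protein genes marked and a line through the median of each level range. The median stays between -0.06 and 0.16 up to a level of 32 and is -0.50 above 128, and 172 genes beyond a difference of 4 either way are not shown.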

How the data were processed

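The arrays were 1-colour CodeLink Mouse Whole Genome arrays hybridised with total RNA. The deposited intensity is the spot mean minus the local background median, divided by the authors' software (CodeLink Expression Analysis 4.1.0.29054, per the labels' processing notes) by the array median over 34967 discovery probes. The 1260 control spots were dropped. Masked, contaminated and irregular spots count as missing, while saturated spots remain. Levels were floored at 0.27, log2 transformed and fitted in limma 3.58.1 (R 4.3.3), with 1 mean per group over all 10 arrays (5 groups of 2, 5 residual degrees of freedom, eBayes with trend and robust options) and Benjamini-Hochberg adjustment over 28109 probes. The fit was tested on simulated data. The removal of invalid probes that the paper's methods describe was not repeated. Probes were named through the deposited gene IDs and RefSeq symbols, and of 2114 genes with several member probes 126 had probes called in opposite directions.

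Members and lists were chosen with earlier results of these data known, and some genes stand in more than 1 of the 89 lists. Another list is not reported here. Named genes are the induced genes, Notch4 and Hprt, and the 12 largest rises and falls of the ranking, whose groups do not overlap. They also include at most 4 members per list, those with the lowest adjusted p. Added to these are members that moved against their list where there are 4 or fewer, or all that moved one way where there are 5 or fewer. The fit was repeated with a 2-fold minimum, with the replicate number blocked, with floors of 0.1 and 1, with quantile normalization alone or after normexp (offset 50), with other filters on background, on member probes or EB arrays only, with plain eBayes, with all member probes of a list, and without each array. Tables and figures came from Python 3.11.15 with numpy 2.4.6, pandas 2.3.3 and matplotlib 3.10.9.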

Additional observations from a re-analysis of the deposited data

How the results depend on the processing

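Over the alternatives, 4399 differences of the 297 named genes with a fitted value were recomputed. Of these, 4268 kept their side of the threshold, 130 lost it and 1 gained it. None reversed in sign while past the threshold in either fit, and changes of sign among genes that passed in neither fit were not counted. Most of these genes were named for a small adjusted p in these data, which makes a reversal unlikely. A reversal could not arise with the 2-fold minimum, the other filters on background, member probes or EB arrays only, or plain eBayes. These leave the group means unchanged, and each gene kept the same probe throughout. With a minimum of 2-fold, 2214 probes were higher and 1761 lower, so that the higher share of calls went from 47.9% to 55.7%. When each array was left out in turn, 4339 to 5055 probes were higher and 4572 to 4978 lower. The smallest counts elsewhere came from a floor of 1, with 3999 higher and 4403 lower. Limited to the 21551 probes above background on all 4 EB arrays, 4376 were higher and 5688 lower, and the median of all probes was -0.10. In 16 of the 89 lists the majority turned under at least 1 alternative. They are the TGF-beta, calcium store, trophoblast, nucleotide, iron and haem, ER translocation, glycosyltransferase, zinc and copper, Forkhead, initiation factor, proteasome, tetraspanin, histone, kinesin, tubulin and orphan receptor lists. At a floor of 1, 7 cadherins, 5 V-ATPase subunits and 10 Dnaj genes rose, and 11 serpins, 11 cytochrome P450 genes, 7 apoptosis genes, 5 fatty acid oxidation genes and 47 solute carriers fell. Among genes above background on all 4 EB arrays, 6 cadherins, 5 RGS genes, 13 homeobox genes and 11 orphan receptors rose, and 4 integrins, 7 chemokine genes, 5 platelet genes and 7 yolk sac genes fell. A list can hold fewer genes under this limit than in the main fit. These counts therefore do not separate calls lost from genes left out, and they were not set against the shares over all genes. With the EB arrays alone, 4752 probes were higher and 4976 lower, and 7 glycolytic and 2 hypoxia genes fell. The replicate numbers did not pair the arrays (correlation -0.033 between the same-numbered differences), and with the replicate block 5686 probes were higher and 6123 lower. The number of arrays and a net signal of 1.77 to 2.63 times the local background limit the precision, and changes of dim genes are bounds.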
